A study of Homo sapiens with 16 samples.

Results

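RNA of control PC3 xenograft tumors was compared with RNA of control PC3 cells grown as a monolayer. PC3 is an established human prostate cancer line, and a xenograft tumor is a mass that such human cells form in a host animal. The series held 16 RNA-seq libraries, 4 each of control and DDX4-null PC3 in both settings, and the 8 control libraries, 4 from tumors and 4 from monolayer cells, were the ones compared. The labels call the treatment of both groups Control, the series' design text calls these cells WT, and no further manipulation, clone, host species, graft site or tumor age is given in the sources used here. The other 8 libraries, DDX4-null tumors and DDX4-null cells, were used to show how the same genes stood in libraries the comparison did not use. Whether the 4 libraries of a group stand for separate animals or cultures is not stated, and p-values therefore cover variation among libraries that could be technical.

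Cells in a monolayer grow on plastic, flooded with nutrients and serum factors, and touch one another only at their edges. In a xenograft the same cells live in a volume, in contact with a matrix and with vessels, fibroblasts and immune cells of the host, and oxygen and nutrients reach them by diffusion. RNA of a xenograft is therefore a mixture of tumor RNA and host RNA, and host reads from conserved exons can be counted on human genes. Genes were separated by their level in culture to keep these sources in view: 11924 of 20356 genes had an average of at least 1 CPM (counts scaled to a library of 1000000) in control cells, and 8432 lay below it. Of the 8432 genes, 3145 had 0 counts in all 8 control libraries. A gene above the line was expressed by the cultured line, yet its reads in tumors can still include host reads.

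Control tumor libraries held 13480294 to 25443952 counts and control cell libraries 14368124 to 18836982. The biological coefficient of variation was 0.109 among tumors and 0.108 among cells. PC3 is known to carry keratins and vimentin. KRT8 averaged 225 ± 17.9 CPM in tumors and 210.2 ± 27.5 CPM in cells, and KRT18 275 ± 7.82 CPM in tumors and 278 ± 26.9 CPM in cells (SD, n = 4 each), neither of which passed the test (adjusted p = 0.389 and 0.9). The prostate-specific antigen gene KLK3 had 0 counts in every cell library. DDX4 held 5, 2, 3 and 3 counts in tumors and 0, 4, 1 and 5 in cells, too few to compare the groups.

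Gene expression differed widely between the settings. Of 12858 genes tested, 4354 (33.9%) were higher in control tumors and 3986 (31.0%) lower, by the quasi-likelihood test of edgeR at an adjusted p of 0.05. Among the 11922 tested genes of at least 1 CPM in culture, 7652 (64.2%) differed, 3695 (31.0%) higher and 3957 (33.2%) lower, and 895 and 909 of them differed at least 2-fold. The median log2 change of these genes was -0.03, their lower and upper quartiles were -0.42 and 0.39, and the 4 tumor and 4 cell values did not overlap for 57.5% of them. Of the calls, 52.2% were higher with the TMM scaling used here, and 66.0% when counts were divided by library totals, which moved the median to 0.14. Below 1 CPM, 936 genes passed the filter, mostly through their level in tumors, so the 688 called (73.5%), 659 higher (70.4%) and 29 lower (3.1%), are a description and support nothing. The line fell among genes of close level. SPOCK3, RINL and PRSS12 lay just inside it, with 6.94, 0.994 and 2.26 CPM in tumors and 1.00 CPM each in cells, and CYP1B1, CHKB and THEMIS2 just outside, with 0.274, 1.83 and 0.545 CPM in tumors and 0.999, 0.999 and 0.998 CPM in cells.

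**Figure D1:**
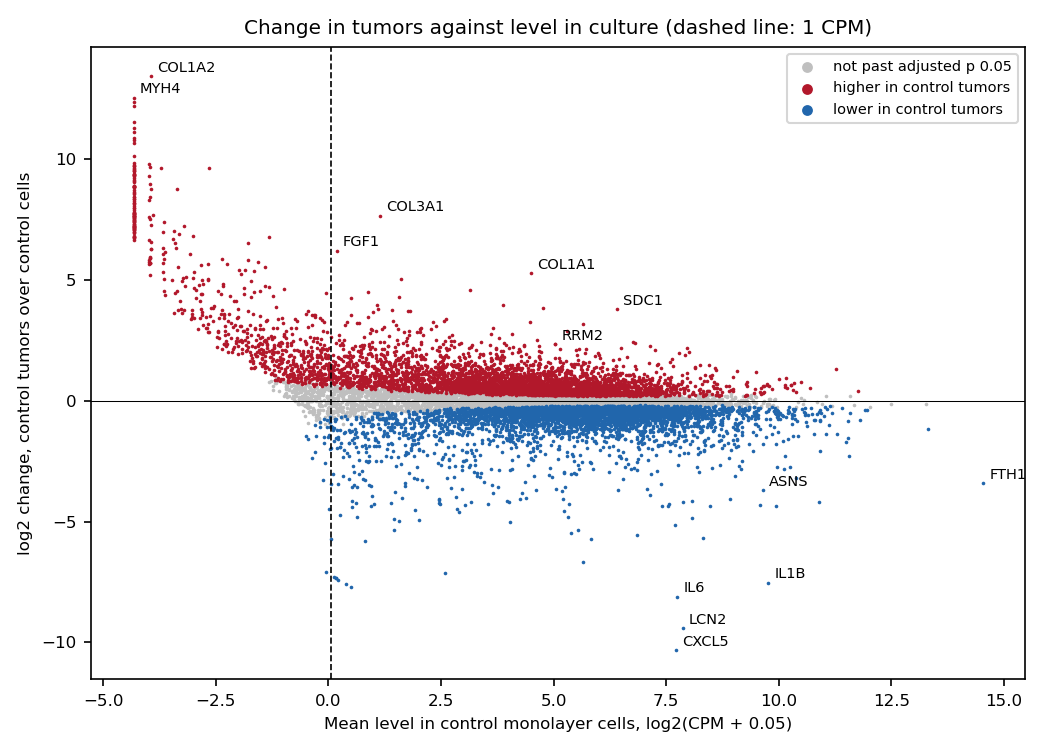
Each point is a tested gene, with its mean level in control monolayer cells on the horizontal axis, as log2(CPM + 0.05), and its log2 change in control tumors over control cells on the vertical axis. Red genes were higher and blue genes lower at an adjusted p of 0.05. Genes left of the dashed line at 1 CPM lie mostly above 0, since most had to be high in tumors to pass the filter, while genes to its right spread on both sides, from COL3A1 at 7.66 to CXCL5 at -10.33.

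The largest rises among genes of at least 1 CPM in culture were led by 2 collagen genes and a growth factor gene. COL3A1, a fibrillar collagen, had 531, 379, 461 and 529 CPM in the 4 control tumors, against 2.18, 1.58, 2.59 and 2.91 CPM in the 4 cell libraries (log2 change 7.66 ± 0.17 SE, adjusted p = 2.4e-15). COL1A1, the main chain of type I collagen, had 973, 801, 853 and 1041 CPM in tumors, against 20.97, 29.4, 24.2 and 20.2 CPM in cells (log2 change 5.28 ± 0.14, adjusted p = 1.4e-14). Both are defining fibroblast genes, and 10 further fibroblast markers under 1 CPM in culture summed to 264 to 430 CPM in tumors and 0.626 to 1.23 CPM in cells. Most of the tumor sum was COL1A2, another collagen gene, with 317, 189, 236 and 293 CPM in the 4 tumors. These 10 markers were picked for a low level in cells, so their contrast is a description. The part of fibroblasts in the results of COL3A1 and COL1A1 was not tested. In these bulk samples more cells of a type and more RNA per cell cannot be told apart.

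The other 8 genes of this group are no fibroblast markers. FGF1, a growth factor that binds the fibroblast growth factor receptors, had 87.7, 82.2, 69.1 and 105 CPM in tumors, against 1.19, 1.00, 0.882 and 1.55 CPM in cells (log2 change 6.22 ± 0.18, adjusted p = 3.2e-14). PLCD4, a phospholipase C, had 121, 99.1, 94.4 and 114 CPM in tumors, against 2.91, 2.58, 3.80 and 3.55 CPM in cells (log2 change 5.04 ± 0.14, adjusted p = 1.8e-14). NTSR1, the receptor of the peptide neurotensin, had 244, 234, 210.0 and 274 CPM in tumors, against 16.3, 16.2, 16.3 and 13.5 CPM in cells (log2 change 3.95 ± 0.11, adjusted p = 2.6e-14). For all 3 genes the lowest tumor lay far above the highest cell library. The urea transporter gene SLC14A1 averaged 226 ± 42.4 CPM in tumors and 9.35 ± 1.25 CPM in cells, a log2 change of 4.60. SIGLEC15, a sialic acid-binding receptor, averaged 43.5 CPM in tumors and 1.88 CPM in cells, and KLK10, a kallikrein-related protease, 60.8 CPM in tumors and 3.08 CPM in cells. FAM111B, a trypsin-like protease, averaged 28.3 CPM in tumors and 1.45 CPM in cells, and EHD2, a protein of the caveolar neck, 34.5 CPM in tumors and 2.17 CPM in cells, so that the log2 changes of these 4 genes lay between 3.98 and 4.52.

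The largest falls among genes of at least 1 CPM in culture were led by secreted inflammatory proteins. CXCL5, a chemokine that draws neutrophils, had 0.141, 0.0590, 0.146 and 0.304 CPM in tumors, against 229, 225, 226 and 213 CPM in cells (log2 change -10.33 ± 0.18, adjusted p = 7.6e-17). The tumor values rest on 2, 1, 4 and 6 counts, so the size of its fall is uncertain. LCN2, a secreted protein that binds iron-carrying siderophores, had 0.281, 0.413, 0.366 and 0.355 CPM in tumors, against 259, 211, 219.8 and 301 CPM in cells (log2 change -9.41 ± 0.19, adjusted p = 4.9e-16). IL6, the cytokine that signals through STAT3, had 0.633, 1.36, 0.732 and 0.608 CPM in tumors, against 239, 200.1, 207 and 268 CPM in cells (log2 change -8.11 ± 0.18, adjusted p = 2.4e-15). These 3 genes ranged from 200.1 to 301 CPM in culture and stayed at or under 1.36 CPM in every tumor. IL1B, the precursor of interleukin-1 beta, had 4.92, 6.84, 4.61 and 3.85 CPM in tumors, against 983, 787, 811 and 1120.1 CPM in cells (log2 change -7.53 ± 0.18, adjusted p = 5.1e-15).

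The other 6 of the 10 largest falls included IL24, a cytokine of the IL10 family, with 0.511 CPM in tumors and 53.6 CPM in cells. EPGN, a ligand of the EGF receptor, averaged 1.07 ± 0.319 CPM in tumors and 60.2 ± 4.27 CPM in cells, and TFF2, a mucosal trefoil peptide, 6.59 ± 1.79 CPM in tumors and 337 ± 63.7 CPM in cells. KRT7, a keratin of simple epithelia, averaged 2.65 CPM in tumors and 122 CPM in cells, and SERPINB3, a protease inhibitor of squamous epithelia, 0.964 CPM in tumors and 44.7 CPM in cells. Their log2 changes lay between -6.66 and -5.46. SERPINB3 shares reads with its close copy SERPINB4, which changed by -5.02, so the value of either is uncertain. FER1L6, a ferlin-family gene, held 2, 0, 1 and 0 counts in the 4 tumors and 83, 87, 139 and 89 in the 4 cell libraries. With so few counts in tumors, its level in cells over that in tumors was 166-fold, with a 95% counting interval of 56.2 to 806.

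**Figure D2:**
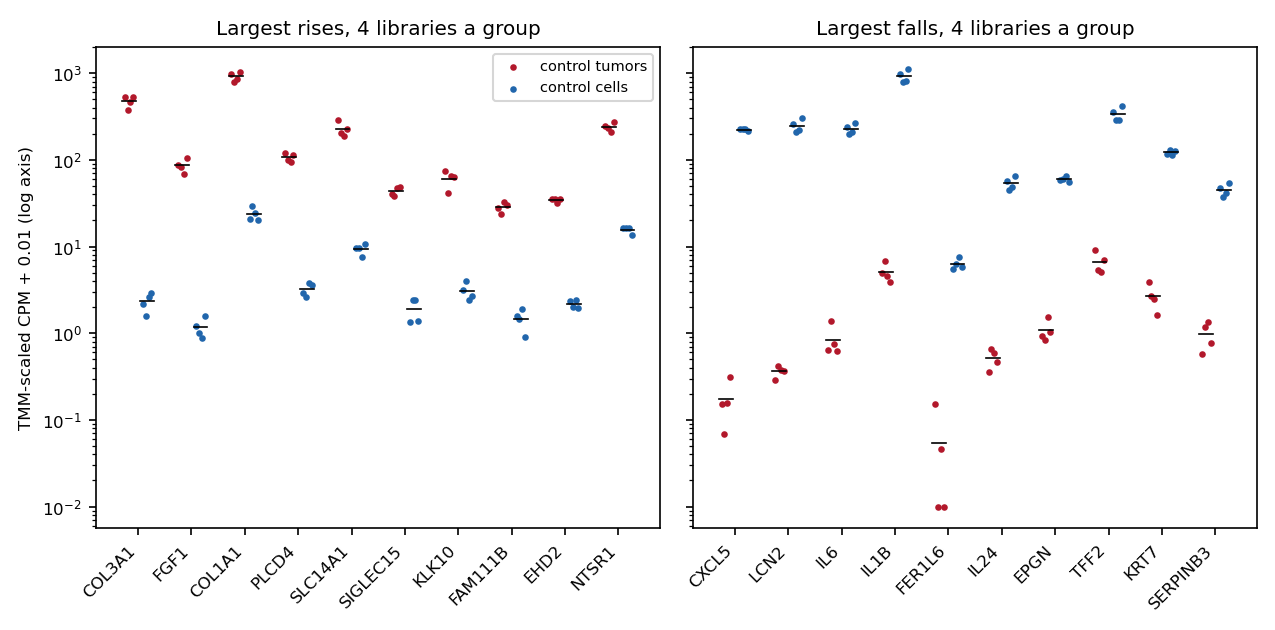
TMM-scaled CPM plus 0.01 on a log axis, with a point per library (red, 4 control tumors; blue, 4 control cell libraries) and a bar at the mean, for the 10 largest rises (left panel) and 10 largest falls (right panel) among genes of at least 1 CPM in culture. No gene's groups overlap, and CXCL5 stands at or under 0.304 CPM in tumors and at or above 213 CPM in cells.

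The falls in cytokine genes extended to the whole list of NF-kB targets. NF-kB is a transcription factor freed from its inhibitor by cytokine, microbial and stress signals, and cultured PC3 cells are known for high NF-kB activity. All 27 tested members were lower in tumors, with a median log2 change of -2.96, where 31.0% of all tested genes were lower and 33.9% higher, the shares that stand behind the counts of every list that follows. Among the chemokines, CXCL8 averaged 109 ± 17.2 CPM in tumors and 2017 ± 328 CPM in cells (log2 change -4.21), and CXCL1, CXCL2 and CXCL3, which are close copies that share reads, changed by -2.71, -4.84 and -4.21. Among the other secreted factors, the colony-stimulating factor genes CSF3 and CSF2 changed by -3.71 and -3.38, and LIF, a cytokine of the IL6 family, by -0.95. The adhesion receptor gene ICAM1 had 44.8, 44.6, 37.1 and 38.3 CPM in tumors, against 313, 340.0, 338 and 287 CPM in cells (log2 change -2.96 ± 0.10, adjusted p = 2.3e-13). The pathway's own factors and inhibitors fell as well. RELB, a subunit, changed by -2.01, NFKBIA, which encodes the inhibitor of NF-kB, by -1.70, and the subunit genes NFKB1 and NFKB2 by -1.29 and -0.88.

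Promoters of list members are shown because genes of a list moved together, and for each list the 2 most changed called members that hold the motif are given, chosen after their values were seen. The sequences are the 250 bases before the start of the gene, from RefSeq on GRCh38.p14, written 5′ to 3′ in the direction of the gene. A motif match is a description of letters and not a site. Known targets of a factor would hold its motif more often than all promoters, whatever their change in these data. For NF-kB the motif was GGGANTTTC on either strand, which stood in 9 of the 24 members with a promoter (37.5%) and in 1.15% of 27305 promoters. Capitals mark it.
CXCL5 promoter, chr4:73998678-73998927, minus strand: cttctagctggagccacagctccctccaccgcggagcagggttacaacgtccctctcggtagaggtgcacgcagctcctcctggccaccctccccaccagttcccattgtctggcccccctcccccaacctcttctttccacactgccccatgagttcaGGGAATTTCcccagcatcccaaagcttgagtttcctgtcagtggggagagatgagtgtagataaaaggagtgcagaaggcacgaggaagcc
IL6 promoter, chr7:22726950-22727199, plus strand: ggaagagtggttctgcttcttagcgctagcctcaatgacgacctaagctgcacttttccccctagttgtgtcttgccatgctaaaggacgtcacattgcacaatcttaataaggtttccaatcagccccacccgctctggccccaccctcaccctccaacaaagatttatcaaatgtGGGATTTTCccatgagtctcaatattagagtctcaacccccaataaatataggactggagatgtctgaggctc
In CXCL5, the gene with the largest fall, the match lies 82 bases before the start, and in IL6 it lies 64 bases before it.

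RNAs of the amino acid and endoplasmic reticulum stress responses were lower in tumors. ATF4 is a transcription factor made when amino acids are short or unfolded proteins build up, and its targets make or import amino acids. Of 18 tested ATF4 targets, 16 were lower and 1 higher, against 31.0% lower and 33.9% higher among all tested genes, with a median log2 change of -2.02. ASNS, asparagine synthetase, had 67.3, 66.9, 72.4 and 55.7 CPM in tumors, against 931, 719.7, 769 and 984 CPM in cells (log2 change -3.70 ± 0.12, adjusted p = 2.0e-13). CHAC1, which degrades glutathione, had 15.6, 18.4, 16.6 and 15.2 CPM in tumors, against 175, 158, 158 and 219.6 CPM in cells (log2 change -3.43 ± 0.12, adjusted p = 3.4e-13). The pseudokinase gene TRIB3 had 149, 167, 165 and 139.8 CPM in tumors, against 1052, 1060.1, 1009 and 1085 CPM in cells (log2 change -2.76 ± 0.09, adjusted p = 2.1e-13). The groups of these 3 genes lay far apart. The enzymes of serine synthesis PHGDH and PSAT1 changed by -2.11 and -2.65, the mitochondrial folate enzyme MTHFD2 by -2.50, and the amino acid transporters SLC7A11, SLC7A5 and SLC3A2 by -2.16, -1.88 and -1.60. ATF4 itself fell by 0.89 on the log2 scale. VLDLR, a lipoprotein receptor, was the higher member at 4.98 CPM in tumors and 2.13 CPM in cells.

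The ATF4 motif searched was TTNCATCA on either strand, held by 3 of 14 members with a promoter (21.4%) and by 3.19% of all promoters. It is in capitals in both promoters shown, 60 bases before the start in ASNS, where it reads on the other strand, and 201 bases before it in CHAC1.
ASNS promoter, chr7:97872409-97872658, minus strand: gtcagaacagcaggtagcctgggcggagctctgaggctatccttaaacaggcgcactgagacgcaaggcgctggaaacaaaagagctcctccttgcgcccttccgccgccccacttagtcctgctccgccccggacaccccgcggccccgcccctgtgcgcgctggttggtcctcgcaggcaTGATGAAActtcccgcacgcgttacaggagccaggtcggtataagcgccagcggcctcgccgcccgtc
CHAC1 promoter, chr15:40953221-40953470, plus strand: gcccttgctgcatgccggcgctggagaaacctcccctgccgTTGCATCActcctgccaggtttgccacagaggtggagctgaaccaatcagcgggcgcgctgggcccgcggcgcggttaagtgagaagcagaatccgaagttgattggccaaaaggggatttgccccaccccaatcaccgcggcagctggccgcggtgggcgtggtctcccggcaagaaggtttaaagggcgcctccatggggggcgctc

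Of 18 tested genes of the unfolded protein response, 16 were lower in tumors and none was higher, with a median of -0.99. HSPA5, the main chaperone of the endoplasmic reticulum, had 999, 889, 1056 and 827 CPM in tumors, against 3237, 2777, 2918 and 3334 CPM in cells (log2 change -1.70 ± 0.11, adjusted p = 4.1e-10). DNAJB9, its co-chaperone, changed by -2.11, the disulfide isomerase PDIA4 by -1.29 and the transcription factor XBP1 by -1.27. The members that did not pass were PDIA6 at -0.13 and SDF2L1 at 0.04.

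Ferritin heavy chain, FTH1, was the most counted gene of the cultures, with 2.37% of all counts in cells and 0.248% in tumors. It had 2500.4, 2404, 2418 and 2052 CPM in tumors, against 25950.0, 27706, 27070.0 and 19384 CPM in cells (log2 change -3.42 ± 0.13, adjusted p = 1.4e-12). FTH1 stores iron and is a target of NRF2, the factor of the oxidative stress response. Of 20 tested NRF2 targets, 15 were lower and 3 higher, with a median of -0.76, and SLC7A11, the cystine transporter, is a member of this list too. Ferritin light chain, FTL, changed by -0.85 and the quinone reductase gene NQO1 by -1.22, while the higher members were GCLM at 0.40, ABCC3 at 0.49 and OSGIN1 at 0.62. SQSTM1, the autophagy receptor p62, changed by -2.06 and the cholesterol transporter of the lysosome, NPC1, by -1.45. The 22 lysosome and autophagy genes as a list had 5 higher and 13 lower members, and 8 and 8 with library totals.

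Genes of DNA replication were higher in tumors. S phase genes license and copy DNA, and many are targets of the E2F factors. Of 25 tested members, 22 were higher and 1 lower in control tumors, where 33.9% of all tested genes were higher, with a median log2 change of 1.13. In the DDX4-null pair 6 of the 25 were higher and 10 lower, with a median of -0.09. Of all genes tested in that pair, 34.6% were higher and 35.3% lower. RRM2, the regulated subunit of ribonucleotide reductase, had 142, 172, 188 and 198 CPM in tumors, against 34.9, 33.4, 35.1 and 34.8 CPM in cells (log2 change 2.34 ± 0.11, adjusted p = 8.2e-12). MCM3, part of the replicative helicase, had 126, 132, 137 and 127 CPM in tumors, against 45.2, 37.8, 38.4 and 44.1 CPM in cells (log2 change 1.66 ± 0.09, adjusted p = 8.2e-11). In neither gene did the groups overlap. The helicase subunits MCM4 and MCM5 changed by 1.57 and 1.78, GINS2, which joins that helicase, by 2.40, the cyclin gene CCNE2 by 2.98 and E2F1 by 1.95. The lower member was CDC6, a licensing factor, with 32.9 CPM in tumors and 39.2 CPM in cells, a call that library totals ended.

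The E2F motif searched was TTTNNCGC on either strand. It stood in 10 of 21 members with a promoter (47.6%) and in 5.93% of all promoters. GINS2 has 1 match, 23 bases before the start, and E2F1 has 4, from 6 to 114 bases before it, of which the last capital stretch holds 2 that overlap.
GINS2 promoter, chr16:85688955-85689204, minus strand: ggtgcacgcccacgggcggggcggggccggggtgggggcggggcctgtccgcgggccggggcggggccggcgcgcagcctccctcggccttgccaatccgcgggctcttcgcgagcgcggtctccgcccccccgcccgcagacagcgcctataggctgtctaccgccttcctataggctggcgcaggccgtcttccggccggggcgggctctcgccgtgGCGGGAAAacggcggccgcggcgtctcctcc
E2F1 promoter, chr20:33686386-33686635, minus strand: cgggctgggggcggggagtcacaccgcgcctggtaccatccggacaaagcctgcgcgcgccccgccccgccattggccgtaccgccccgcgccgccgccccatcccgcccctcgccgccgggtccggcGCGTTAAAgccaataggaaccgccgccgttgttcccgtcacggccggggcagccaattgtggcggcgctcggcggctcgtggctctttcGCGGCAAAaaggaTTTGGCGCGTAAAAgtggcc

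Mitotic genes moved less. Of 25 tested genes of G2 and mitosis, 14 were higher and 2 lower, with a median of 0.37. The proliferation antigen gene MKI67 had 143, 153, 179 and 154 CPM in tumors, against 74.3, 73.9, 79.3 and 71.4 CPM in cells (log2 change 1.07 ± 0.09, adjusted p = 1.8e-08). The mitotic kinase gene AURKB changed by 1.08 and the mitotic kinesin gene KIF20A by 1.02, while the kinase gene CDK1 at 0.12 and topoisomerase TOP2A at 0.13 did not pass. PRC1, a spindle midzone protein, was lower at -0.41. The replication-dependent histone genes, whose RNAs largely lack poly(A) tails and are poorly caught by an mRNA kit, went the other way, with 0 higher and 7 lower of 8 tested. H1-2 averaged 75.5 CPM in tumors and 193 CPM in cells, and histone genes share reads with close copies. Among CDK inhibitors, the INK4 genes CDKN2B and CDKN2C changed in opposite directions, by -2.09 and 1.79, and CDKN1A, which encodes p21, by -1.42.

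The type I interferon response was higher in tumors. Its genes are switched on when interferon or nucleic acid sensing activates transcription factors such as STAT2 and IRF9, and many block viral replication. Of 29 tested members, 25 were higher and 2 lower, where 33.9% of all tested genes were higher, with a median log2 change of 0.89. BST2, which tethers budding virions, had 38.2, 103, 64.9 and 65.5 CPM in tumors, against 5.22, 6.23, 6.34 and 7.88 CPM in cells (log2 change 3.40 ± 0.23, adjusted p = 1.5e-09). IFI6 had 184, 349.8, 293 and 233 CPM in tumors, against 66.6, 68.8, 65.1 and 67.03 CPM in cells (log2 change 1.99 ± 0.15, adjusted p = 4.3e-09). CMPK2, a mitochondrial nucleotide kinase, had 17.2, 31.6, 24.04 and 21.7 CPM in tumors, against 5.56, 5.95, 5.24 and 5.55 CPM in cells (log2 change 2.09 ± 0.16, adjusted p = 7.9e-09). All tumors lay above all cell libraries for these 3 genes, with a wider spread among tumors. The GTPase gene MX1 changed by 1.76 and the sensors OAS1, OAS2 and OAS3 by 0.83, 0.56 and 1.36. STAT2 and IRF9 changed by 0.80 and 0.89. The lower members were OASL at -0.98 and ISG20 at -0.59. Antigen presentation by MHC class I, which interferon also induces, did not follow, with 1 higher and 5 lower of 16 tested, or 3 and 2 with library totals. HLA-B at -0.15 and B2M at -0.15 did not pass.

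The interferon-stimulated response element was searched as GAAANNGAA on either strand. It stood in 15 of 22 members with a promoter (68.2%) and in 7.06% of all promoters. BST2 has 2 overlapping matches, 115 and 121 bases before the start, and IFITM1, which rose by 2.06, has 1 match 31 bases before it.
BST2 promoter, chr19:17405631-17405880, minus strand: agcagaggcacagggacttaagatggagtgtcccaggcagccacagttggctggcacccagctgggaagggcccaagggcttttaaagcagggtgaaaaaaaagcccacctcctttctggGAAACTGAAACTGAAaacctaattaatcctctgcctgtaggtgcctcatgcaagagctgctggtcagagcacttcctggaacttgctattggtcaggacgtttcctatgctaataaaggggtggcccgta
IFITM1 promoter, chr11:313790-314039, plus strand: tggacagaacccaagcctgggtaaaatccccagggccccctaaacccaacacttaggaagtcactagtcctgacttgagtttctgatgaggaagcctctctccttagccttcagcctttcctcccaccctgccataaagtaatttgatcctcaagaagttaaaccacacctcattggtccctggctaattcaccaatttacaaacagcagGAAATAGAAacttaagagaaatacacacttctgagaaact

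Hypoxia targets did not move as a body in the control pair. HIF factors induce them when oxygen falls. Of 24 tested, 10 were higher and 4 lower, with a median of 0.21, where 33.9% of all tested genes were higher and 31.0% lower. With library totals these were 13 and 4. In the DDX4-null pair 18 of 23 tested were higher and 1 lower, with a median of 0.85, beside 34.6% higher and 35.3% lower among all genes. The interaction term passed for 16 of 24, beside 52.8% among all genes. ANGPTL4, an inhibitor of lipoprotein lipase, had 121, 90.9, 115 and 102 CPM in tumors, against 12.5, 13.9, 11.3 and 15.2 CPM in cells (log2 change 3.02 ± 0.12, adjusted p = 1.6e-12). The kinase gene PDK1, which restrains pyruvate entry into mitochondria, changed by 1.23, and the prolyl hydroxylase EGLN3 by 2.10. Other well known targets were lower: the carbonic anhydrase gene CA9 averaged 1.11 ± 0.400 CPM in tumors and 11.5 ± 0.751 CPM in cells, stanniocalcin STC2, which ATF4 also induces, 194 ± 32.1 CPM in tumors and 1287 ± 121 CPM in cells, and the vessel growth factor VEGFA 98.8 ± 19.01 CPM in tumors and 347 ± 9.34 CPM in cells. BNIP3 at -0.04 and ADM at 0.24 did not pass. Of 15 tested angiogenic factors, 10 were lower and 4 higher, with FGF2 at -2.60 and SEMA3C at -1.86 among the lower and PDGFB at 1.37 among the higher.

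Glycolysis genes were higher in 14 and lower in 2 of 20 tested, with a median of 0.43. The most changed were the mutase PGAM1 at 1.09, hexokinase HK1 at 0.93 and enolase ENO2 at 0.88, and lactate dehydrogenase LDHA had 2734, 2341, 2447 and 2707 CPM in tumors, against 1813, 1626, 1725 and 1867 CPM in cells. Nuclear genes of oxidative phosphorylation were lower in 13 and higher in 3 of 24 tested, or 9 and 6 with library totals, with small changes. The exception in size was SDHA, the flavoprotein of complex II, with 301, 337, 294 and 354 CPM in tumors, against 121, 111, 110.2 and 134 CPM in cells (log2 change 1.43 ± 0.10, adjusted p = 1.1e-09). Its partner subunit SDHB changed the other way, by -0.68. Mitochondrially encoded genes held 3.76% ± 0.150 of counts in tumors and 3.81% ± 0.585 in cells (SD, n = 4 each, exact two-sided permutation p = 0.886, adjusted p = 0.886 over 3 shares). Cytosolic ribosomal protein genes were lower in 19 and higher in 1 of 25 tested, and in 7 and 1 with library totals, so most of these calls depended on the scaling. All 84 ribosomal protein genes together took 6.06% ± 0.366 of counts in tumors and 6.95% ± 0.962 in cells (exact p = 0.171, adjusted p = 0.257). The 10 most counted genes took 5.13% ± 0.134 in tumors and 7.19% ± 0.335 in cells (exact p = 0.0286, the smallest that 4 against 4 libraries allow, adjusted p = 0.0858).

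In lipid metabolism, 7 of 11 tested genes of fatty acid synthesis and desaturation were lower and 3 higher, led by the desaturase FADS1 at -1.16, while the synthase FASN, at 0.02, did not pass. Of 21 tested cholesterol genes 7 were higher and 6 lower, shares near the 33.9% and 31.0% of all tested genes. The synthase HMGCS1 rose by 0.55.

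Signalling genes from growth factor and stress pathways were mostly lower. Of 20 tested immediate early genes, which answer serum and stress within minutes, 15 were lower and 3 higher, with a median of -1.14. ATF3 changed by -2.83, JUNB by -2.23, the phosphatase gene DUSP5 by -1.79 and MYC by -1.47, whereas JUN rose by 1.15 and EGR1, at 0.03, did not pass. In the EGF receptor family, 11 of 15 tested genes were lower and 2 higher. The ligand AREG averaged 1.41 ± 0.404 CPM in tumors and 22.1 ± 2.91 CPM in cells and TGFA 0.519 CPM in tumors and 9.51 CPM in cells, while EGFR itself had 111, 100.1, 104 and 94.5 CPM in tumors, against 369, 381, 409 and 359 CPM in cells (log2 change -1.89 ± 0.09, adjusted p = 1.1e-11). MET, the receptor of hepatocyte growth factor, changed by -0.59 and the receptor kinase AXL by 0.59.

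TGF-beta targets were divided, 7 higher and 9 lower of 16 tested. The inhibitors of differentiation ID1 and ID3, which bone morphogenetic proteins induce, fell to 10.3 ± 0.842 and 1.18 ± 0.152 CPM in tumors, against 97.98 ± 4.59 and 20.03 ± 1.53 CPM in cells, and the ligand gene TGFB2 to 10.1 ± 1.08 CPM, against 79.5 ± 5.90 CPM. ID2, of the same family, rose by 1.68. In the Wnt and Notch pathways 8 genes were higher and 12 lower of 23 tested, or 10 and 10 with library totals. The Notch target HES1 changed by -3.04 and the Notch ligand JAG1 by -0.95, while the Wnt ligands WNT7A and WNT5A rose by 2.16 and 2.17.

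Genes of the actin cytoskeleton and focal adhesions were higher in 13 and lower in 2 of 19 tested, with a median of 0.63. Non-muscle myosin MYH9 had 874, 1133, 1005 and 1179 CPM in tumors, against 388, 447, 428 and 369.6 CPM in cells (log2 change 1.36 ± 0.11, adjusted p = 8.1e-09), gamma actin ACTG1 rose by 1.27 and tubulin TUBB6 by 1.34. Among YAP and SRF targets, 9 rose and 6 fell of 18 tested: the contractile genes ACTA2 and MYL9 rose by 3.27 and 2.98, and ANKRD1, a YAP target, changed by -2.87. ACTA2 is a pericyte marker too, and the 6 pericyte and smooth muscle markers under 1 CPM in culture summed to 26.8 to 60.3 CPM in tumors and 1.00 to 1.54 CPM in cells. DES, which is on the skeletal muscle list too, is 1 of the 6 and had 10.7, 43.8, 27.5 and 12.9 CPM in the 4 tumors. The sum therefore does not stand for pericytes alone. Of 19 tested integrins and laminins, 10 were lower and 4 higher. The integrin genes ITGAV and ITGB3 changed by -1.75 and 1.74.

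Epithelial and mesenchymal genes did not change as opposite bodies. Of 17 tested mesenchymal genes and EMT factors, 12 were higher and 3 lower. Vimentin, VIM, had 1811, 1774, 1579.8 and 1778 CPM in tumors, against 766, 786, 757 and 761 CPM in cells (log2 change 1.18 ± 0.09, adjusted p = 3.9e-09), and the collagen cross-linker LOXL2 rose by 1.61, whereas N-cadherin, CDH2, changed by -1.66 and the repressors SNAI1 and SNAI2 by -0.78 and -0.81. SPARC, FN1, LOXL2 and VIM are also made by fibroblasts, whose marker sums are given above, and the part of host reads in their change was not tested. Of 18 tested epithelial genes, 5 were higher and 6 lower, or 8 and 6 with library totals. E-cadherin, CDH1, averaged 29.7 ± 3.12 CPM in tumors and 14.8 ± 2.04 CPM in cells, KRT19 rose by 0.93, and the epithelial factor ELF3 and the claudin CLDN7 changed by -2.80 and -3.67. Of 11 tested genes of keratinization, 4 were higher and 4 lower, with a median of 0.18, or 6 and 3 with library totals. KRT14, which lay under 1 CPM in culture, changed by 5.68, the transglutaminase gene TGM1 by 1.02, KRT75 by 0.92 and KRT81 by 0.44. The lower members were S100A9 at -0.67, the elastase inhibitor PI3 at -4.31, and SERPINB3 and SERPINB4, whose values are given above.

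Among prostate lineage genes, 3 were higher and 5 lower of 10 tested, or 4 and 4 with library totals. The lineage factor HOXB13 had 489, 468, 485 and 512 CPM in tumors, against 163, 171, 171 and 169 CPM in cells (log2 change 1.53 ± 0.08, adjusted p = 5.2e-11), and the protease gene TMPRSS2 rose by 1.90. STEAP1, a metalloreductase of the cell surface, changed by -1.48. The line is known to have lost a working CTNNA1, the gene of alpha-catenin. CTNNA1 had 12.1, 11.6, 12.4 and 12.1 CPM in tumors, against 2.84, 4.44, 3.75 and 3.04 CPM in cells (log2 change 1.77 ± 0.15, adjusted p = 1.7e-08). It was above 0 in every cell library, and the source of its reads was not tested.

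**Figure D3:**
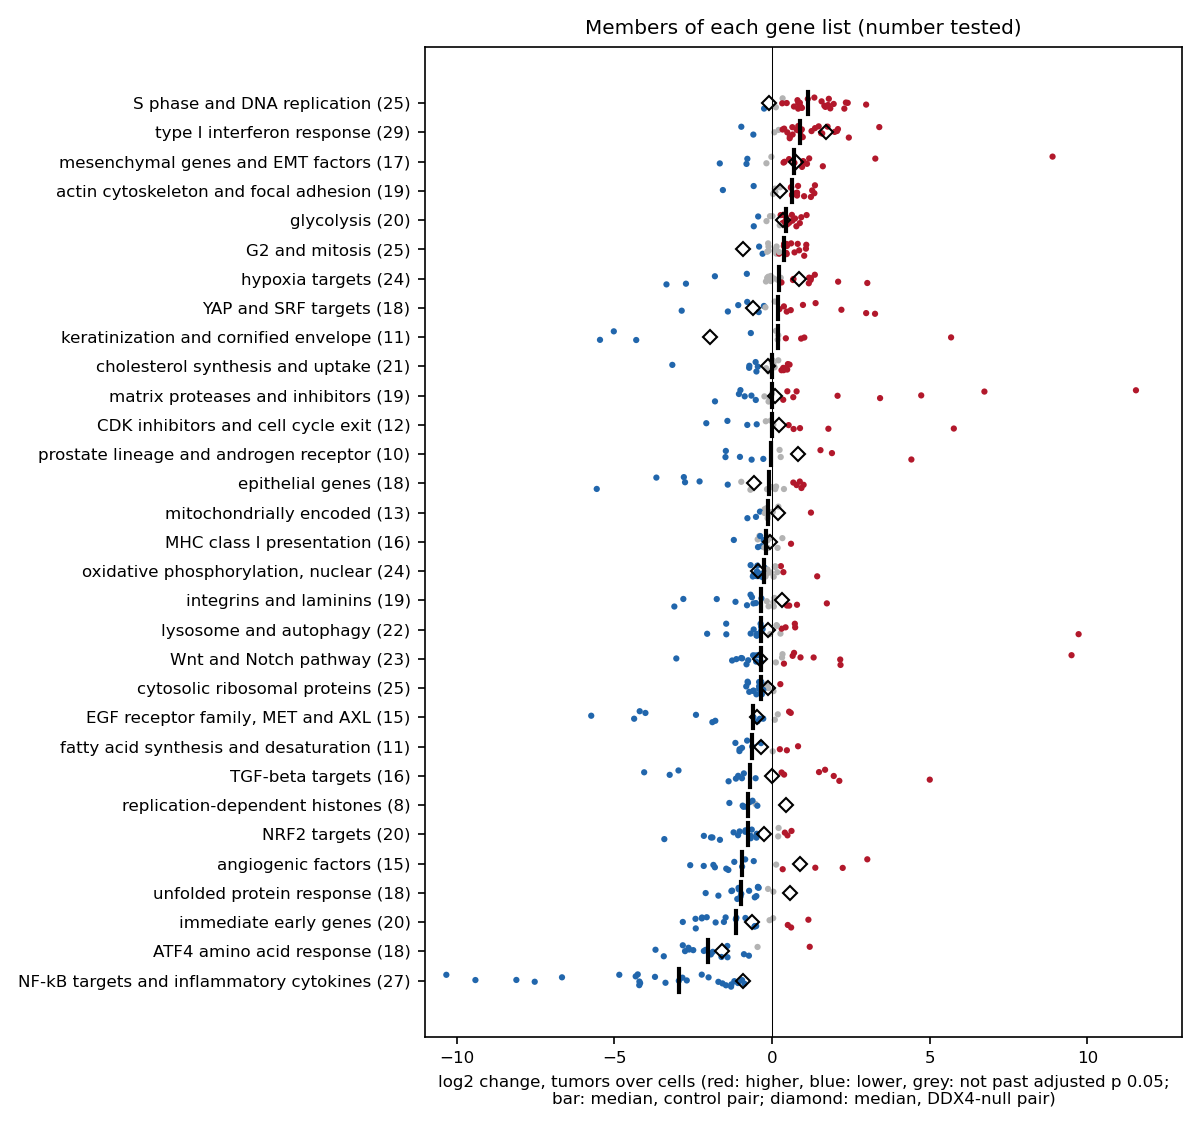
Log2 change in control tumors over control cells for the tested members of 31 gene lists, a point per gene (red, higher; blue, lower; grey, not past an adjusted p of 0.05), with a bar at the median of the control pair and a diamond at the median of the DDX4-null pair. The NF-kB list lies wholly below 0 with a median of -2.96, and the S phase list has the highest control median at 1.13 beside a DDX4-null median of -0.09. Several other lists also have control and DDX4-null medians on opposite sides of 0. Among them are the unfolded protein response, angiogenic, mitosis (0.37 and -0.91) and histone (-0.76 and 0.46) lists.

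Genes that culture hardly expressed included markers of fibroblasts, skeletal muscle, leukocytes and endothelium with reads in tumors. By level in tumors, the 10 leading genes under 1 CPM in cells were COL1A2, ACTA1, MYH4, IGF2, IGFBP7, MYH1, CKM, TNS1, DES and PKHD1, of which ACTA1, MYH4, MYH1, CKM and DES are muscle genes. COL1A2, the partner chain of type I collagen, had 317, 189, 236 and 293 CPM in tumors and 1, 0, 0 and 0 counts in the 4 cell libraries. ACTA1, skeletal muscle actin, had 67.8, 135, 134 and 42.3 CPM in tumors and 0.0661, 0.215, 0.0551 and 0.129 CPM in cells. MYH4, a fast muscle myosin, had 32.2, 67.2, 50.7 and 19.6 CPM in tumors and 0 counts in cells, at least 887-fold higher against a floor of 3 counts over the 4 cell libraries. Muscle genes varied several-fold between tumors, and myosin genes share reads with close copies.

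Summed over the members under 1 CPM in culture, 13 skeletal muscle markers reached 132 to 458 CPM in tumors and 2.06 to 2.99 CPM in cells. The 18 leukocyte markers, all under 1 CPM in culture, summed to 28.99 to 60.01 CPM in tumors and 1.76 to 2.92 CPM in cells, with C1QA and NKG7 at 0 in all tumors. The 10 endothelial markers summed to 13.8 to 17.96 CPM in tumors and 0.493 to 1.06 CPM in cells, with EMCN at 0 in all tumors. Markers of fat, red blood cells and epidermis were low: 4.29 to 6.56, 3.00 to 7.20 and 2.65 to 33.8 CPM in tumors, against 0 to 0.212, 0.235 to 0.425 and 0 to 0.123 CPM in cells. LEP, HBA2 and KRT2, defining markers of these 3 lists, had 0 counts in all tumors, and nerve markers summed to 0.562 to 3.60 CPM in tumors and 0.294 to 0.696 CPM in cells with S100B at 0. The members summed were picked for a low level in cells, which favors higher sums in tumors. Over all members, fat markers summed to 13.2 to 16.3 CPM in tumors and 83.2 to 87.2 CPM in cells. Nerve markers summed to 90.6 to 103 CPM in tumors and 144 to 156 CPM in cells, and the epidermis sums overlapped. For the other host cell types, sums over all members stayed higher in tumors. All genes under 1 CPM in culture together took 0.344% ± 0.0249 of tumor counts and 0.0794% ± 0.00446 of cell counts (SD, n = 4 each), which is a description.

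**Figure D4:**
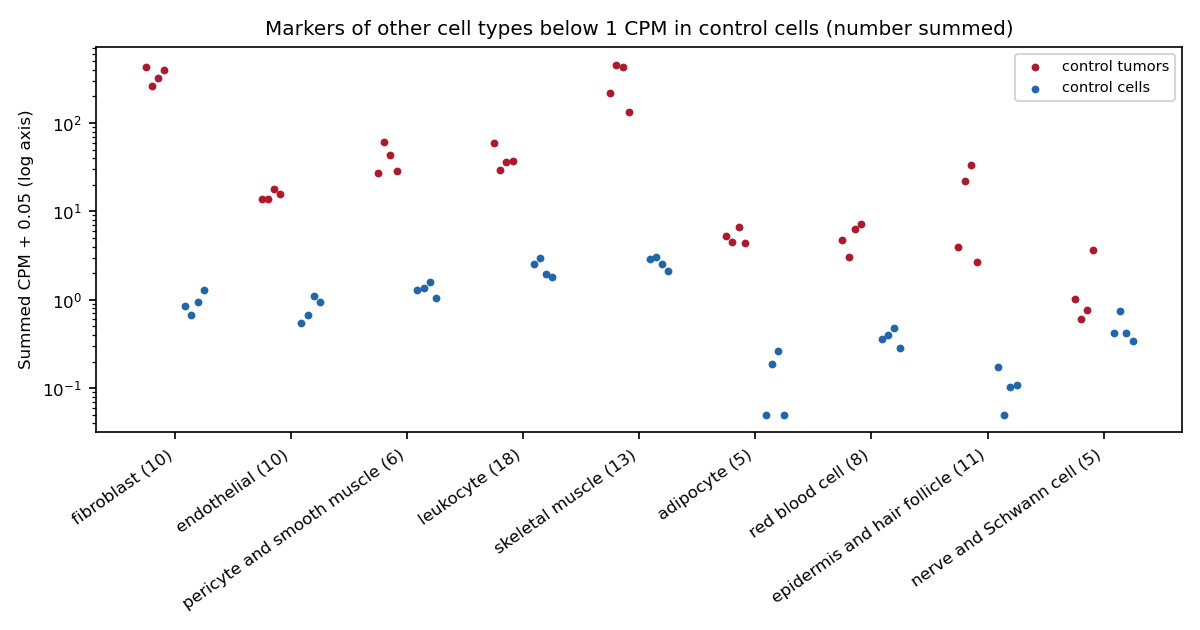
Summed CPM plus 0.05 on a log axis of the markers of 9 other cell types that lay under 1 CPM in control cells, with a point per library (red, 4 control tumors; blue, 4 control cell libraries) and the number of genes summed in brackets. Fibroblast and skeletal muscle sums are highest in tumors, at 264 to 430 and 132 to 458 CPM, and only the nerve sums of tumors and cells overlap.

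The 1 CPM line separated host genes from genes of the line only in part. Of 112 host markers matched, 27 lay at or above 1 CPM in control cells, COL1A1, COL3A1, SPARC and FN1 among them. Of all genes, 11924 of 20356 did. Of the 659 genes called higher below the line, 45 were on a marker list, 99 had 0 counts in all 4 control cell libraries, and 248 reached at least 1 CPM in DDX4-null monolayer cells. The same counts were not taken over all 936 genes tested below the line, so these are a description. IGF2, an insulin-like growth factor, averaged 41.00 CPM in control tumors and 0.373 CPM in control cells, but 36.7 CPM in DDX4-null tumors and 117 CPM in DDX4-null cells. LCP1, an actin bundler used as a leukocyte marker, averaged 9.71 CPM in control tumors and 0.155 CPM in control cells, and 11.4 CPM in DDX4-null tumors and 491 CPM in DDX4-null cells. HEXA, a lysosomal hexosaminidase that most cells make, had 6.89, 3.84, 6.70 and 6.44 CPM in control tumors and 0 counts in every control cell library, at least 125-fold higher. In the DDX4-null libraries it averaged 12.6 CPM in tumors and 0.0116 CPM in cells. A gene that most cells make thus stood at or near 0 counts in the cultures of both genotypes, and whether its reads there went uncounted was not tested. MMP2 and SFRP1, genes of stromal cells, also had 0 counts in control cells and averaged 21.2 and 5.14 CPM in control tumors, at least 443-fold and 107-fold higher.

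The DDX4-null libraries, none of which enters the control comparison, gave another tumor against monolayer contrast in the same line. Of 13277 genes tested there, 4590 (34.6%) were higher in tumors and 4681 (35.3%) lower. Of the 4275 genes higher in control tumors and tested in both pairs, 60.0% were also higher in DDX4-null tumors and 14.7% lower. Of the 3929 genes lower in control tumors, 56.7% were also lower and 14.7% higher. Across 11868 genes of at least 1 CPM in control cells, log2 changes of the pairs had Pearson's r = 0.558 and Spearman's rho = 0.506, over genes that are not independent replicates. The setting effect itself differed between genotypes for 7181 of 13603 genes (52.8%), more positive in the control pair for 26.8% and more negative for 26.0%, by the interaction term in a model of all 16 libraries. With library totals these were 4404 and 2721 genes.

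KRT7 changed by -5.56 in the control pair and -6.12 in the DDX4-null pair, COL1A1 by 5.28 and 5.70, and NTSR1 by 3.95 and 3.48, and no difference between genotypes passed for these 3, which does not show that the effects are equal (adjusted p = 0.0774, 0.525 and 0.0641). COL1A1 averaged 1949 ± 1912 CPM in DDX4-null tumors (SD, n = 4), a spread at which a difference can go undetected. CXCL5 averaged 0.163 CPM in control tumors and 223 CPM in control cells, against 0.252 and 0.316 CPM in DDX4-null tumors and cells. It was too low in the DDX4-null pair to be tested there. TFF2 averaged 6.59 CPM in control tumors and 337 CPM in control cells, and 12.5 CPM in DDX4-null tumors and 20.9 CPM in DDX4-null cells, and EPGN 1.07 CPM in control tumors, 60.2 CPM in control cells, 0.660 CPM in DDX4-null tumors and 1.13 CPM in DDX4-null cells. For these 3 genes the interaction passed (adjusted p = 1.1e-10, 1.7e-07 and 1.8e-09), the tumors of both genotypes were low, and the cultures differed.

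Lists are given side by side in the same way. All 27 NF-kB targets were lower in control tumors, while in the DDX4-null pair 14 of 25 tested were lower and 2 higher, with a median of -0.91, and the interaction term passed for 27 of 27. Of 18 unfolded protein response genes, 16 were lower in control tumors but 14 higher and 1 lower in DDX4-null tumors, with the interaction passed for 18. HSPA5 averaged 943 CPM in control tumors and 3067 CPM in control cells, against 1207 and 950.1 CPM in DDX4-null tumors and cells. Of 25 S phase genes, 22 were higher and 1 lower in control tumors and 6 higher and 10 lower in DDX4-null tumors, with the interaction passed for 21. Of 25 genes of G2 and mitosis, 14 were higher and 2 lower in control tumors and 0 higher and 24 lower in DDX4-null tumors, with the interaction passed for 24. MKI67 averaged 157 CPM in control tumors and 74.7 CPM in control cells, and 121 CPM in DDX4-null tumors and 225 CPM in DDX4-null cells. By contrast 16 and 14 of 18 ATF4 targets were lower in control and DDX4-null tumors, and interferon genes were higher in 25 of 29 and 19 of 28 tested, with the interaction passed for 12 of 18 and 11 of 29. DDX4-null tumors varied widely in the 3 interferon genes described above. BST2 averaged 33.5 ± 33.7, IFI6 171 ± 140 and CMPK2 15.2 ± 13.1 CPM there (SD, n = 4). At such a spread a difference between genotypes can go undetected. The counts of interaction calls stand beside 52.8% among all genes. Those of the DDX4-null pair stand beside 34.6% higher and 35.3% lower among all genes tested there.

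By chromosome, the median log2 change of genes of at least 1 CPM in culture, relative to the median of all such genes, was lowest on chromosome 18 at -0.23, chromosome 7 at -0.20 and chromosome 9 at -0.17. It was highest on chromosome 16 at 0.25, chromosome 19 at 0.22 and chromosome 20 at 0.20. Over 23 chromosomes the medians had an SD of 0.14 in the control pair and 0.28 in the DDX4-null pair, where chromosome 7 stood at 0.55. These medians are a description with no test.

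**Figure D5:**
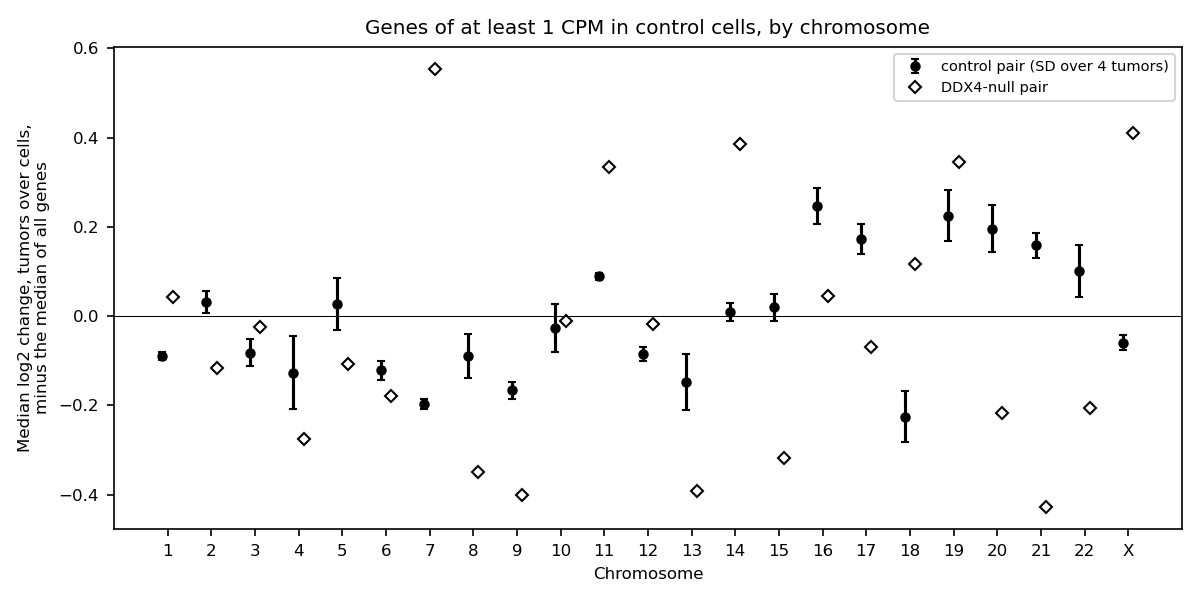
Median log2 change, tumors over cells, of genes of at least 1 CPM in control cells on each chromosome, minus the median of all such genes. Filled points are the control pair, with a bar of 1 SD over the 4 tumors, and diamonds are the DDX4-null pair. Control medians lie between -0.23 on chromosome 18 and 0.25 on chromosome 16, and the DDX4-null median of chromosome 7 is 0.55.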

How the data were processed

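RNA was measured by RNA-seq in 4 control PC3 tumor libraries and 4 control monolayer libraries. The deposited table gives the authors' raw counts of reads for 20356 Ensembl gene IDs, in 1 file for all 16 libraries, and 0 columns were left unused for want of a label. Per the labels' protocols, the TruSeq Stranded mRNA kit was used on DNase-treated total RNA. The submitters' processing notes name Trimmomatic 0.39, STAR 2.7.10a, featureCounts 2.0.3 and build GRCh37. How strands were set, which annotation was counted and whether host reads were removed is not given in the sources used here. Therefore reads shared between close copies, antisense partners or host and human genes cannot be assigned further.

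Counts were tested with edgeR 4.0.16 in R 4.3.3 (TMM scaling, filterByExpr, quasi-likelihood test, Benjamini-Hochberg adjustment over all genes tested), and levels are TMM-scaled CPM, while the 1 CPM split, the genes at its edge and the marker sums used CPM of library totals. The SE of a log2 change was taken as its size over the square root of the test's F statistic. For genes with few counts in 1 group, such as CXCL5 and LCN2 in tumors, it understates the counting error. Floors of 3 counts (0.110 to 0.211 CPM per tumor library and 0.165 to 0.215 CPM per cell library) and intervals cover counting error only. DESeq2 1.42.0, other scalings, filters, splits, a model of all 16 libraries, the replicate number as a block and leaving out each library were alternatives. Shares were compared by exact permutation tests in SciPy 1.17.1.

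Symbols came from a gene name table for 18979 IDs and from GENCODE v29 for 532 more, and 845 had none. Chromosomes came from GENCODE v29 (GRCh38) by ID, and promoter sequences from RefSeq on GRCh38.p14. The members, gene lists and tests were chosen with earlier results of these data known. Genes named are the 10 largest rises and falls among called genes without overlap that reached 5 CPM in the higher group, the 10 highest below 1 CPM, the 3 called members of smallest p per list, the 2 highest markers per marker list and 8 fixed genes, and not all of these are described, since results of some genes are not reported here. Other list members, and the count of interaction calls per list, were added after the values were seen. In counts simulated for this comparison, over 12746 genes with 200 changed, edgeR recovered 61.8% of those with a log2 change of 0.5, 96.9% at 1 and 100% at 2, with 2.29% of calls false. For DESeq2 these were 66.2%, 95.4% and 100%, with 5.98% false. The simulation changed few genes, as many up as down, while 64.9% of tested genes were called in the data. Its false shares therefore do not cover errors of scaling in these data. Replicates differed beyond sampling noise (chi-square per degree of freedom 3.65 to 36.2), and none was treated as a copy of another.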

Additional observations from a re-analysis of the deposited data

Results flagged for a closer look

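In 14 of 281 groups of 4 libraries checked, the highest or lowest library lay far from the others by Dixon's ratio at its 95% limit, and chance alone sets about 1 in 20 groups apart. Control tumor replicate 4 took the smallest share of counts on genes under 1 CPM in culture, 0.307% against 0.355% to 0.359% in the other tumors. Control tumor replicate 3 was lowest for EHD2 (31.5 CPM, others 35.5), SFRP1 (4.57 CPM, others 5.27 to 5.37) and VIM (1579.8 CPM, others 1774 to 1811). Control tumor replicate 2 was highest for IL6 (1.36 CPM, others 0.608 to 0.732) and JUNB (62.7 CPM, others 44.6 to 46.5) and lowest for HEXA (3.84 CPM, others 6.44 to 6.89). Among control cells, replicate 4 was lowest for NTSR1 (13.5 CPM, others 16.2 to 16.3) and PKHD1 (0.904 CPM, others 0.992 to 1.00). It was also lowest for the epidermis and hair follicle markers (28.1 CPM, others 38.6 to 39.7). Marker sums in this paragraph are over all members, and not only those under 1 CPM in culture. Control cell replicate 2 was lowest for HK1 (251 CPM, others 267 to 269) and highest for the endothelial markers summed over all members (48.8 CPM, others 45.9 to 46.2). Control cell replicate 3 was lowest for KDR (13.4 CPM, others 15.0 to 15.2).

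For 15 of the 20 genes with the largest changes, the setting effect (log2, tumors over cells) differed between control and DDX4-null libraries, by edgeR's interaction term at an adjusted p of 0.05 over 13603 genes, of which 52.8% passed. The 20 genes were chosen for large changes in the control pair, which enter the interaction. The control effect minus the DDX4-null effect was 2.27 for FGF1, 0.91 for PLCD4, 1.76 for SIGLEC15 and 2.74 for FAM111B, and it was -0.68 for SLC14A1 and -2.38 for EHD2, which rose more in the DDX4-null pair. Among the falls it was -10.04 for CXCL5, -2.55 for LCN2, -3.91 for IL6, -2.64 for IL1B, -4.75 for FER1L6, -1.13 for IL24, -5.03 for EPGN, -4.89 for TFF2 and -3.21 for SERPINB3. The largest adjusted p among these was 0.0419. CXCL5 was too low in the DDX4-null pair to be tested in that pair alone, so the size of its difference is uncertain.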

How the results depend on the processing

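Under other size factors, library totals, DESeq2, other filters, the model of all 16 libraries, the replicate block and leaving out each library, no called named gene changed direction. Library totals put the median of genes of at least 1 CPM in culture at 0.14, against -0.03, and gave 4868 higher and 2849 lower of them, against 3695 and 3957. The mitochondrial share differed by -0.0459 percentage points, which did not pass, and by 0.0141, 0.0325 and 0.183 without control tumor replicate 4 and control cell replicates 1 and 4. Counts among all genes and among genes of at least 1 CPM in culture stayed within 1.5 times those reported, except that a 2-fold threshold left 1482 higher and 931 lower genes in all, and 895 and 909 among genes of at least 1 CPM. Counts below 1 CPM moved most, since filter and split define them. Against 659 higher and 29 lower, no filter gave 1430 and 179, a filter at a mean of 1 CPM 407 and 0, a split at 0.5 CPM 434 and 0, a split at 5 CPM 1323 and 334, and a split by the mean of all 8 libraries 256 and 87. The model of all 16 libraries gave 94 lower, and leaving out each library in turn gave 27 to 51 lower, with 48, 50, 51 and 46 without control tumor replicates 1, 2, 3 and 4; fewer tumors change what the filter lets in. The fall in the share of the 10 most counted genes was -2.06 percentage points. It was -2.20 to -1.96 without each library in turn, each of these at an exact p of 0.0571, the smallest that 4 against 3 allow.

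Of 137 named genes tested, 133 were called, and over 15 alternatives 2038 of the gene and alternative pairs kept their call, 14 in 3 genes (KDR, ERAP2 and PMP22) lost it and 2 (KRT10 and KRT8) gained it. Replicate numbers do not pair tumors with cells: deviations of libraries with the same number correlated at 0.0584, 0.136, -0.0451 and -0.0253. With the replicate block, 4366 genes were higher and 3966 lower. Depth limits genes near 3 counts, such as DDX4, whose change was not detectable. A fitted log2 change against 0 counts in cells depends on the prior count, so lower bounds are given for those genes.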

Other observations

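Among the most counted genes, and chosen after the values were seen, MSMP, a small secreted microseminoprotein, took 0.705% of counts in control tumors and 0.248% in control cells. EEF1A1, the elongation factor that brings aminoacyl-tRNA to the ribosome, took 0.512% in tumors and 1.01% in cells. GAPDH, a glycolytic enzyme often used as a reference gene, took 0.515% in tumors and 0.346% in cells.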
